A study of Mus musculus with 2 samples.

Results

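Bone morphogenetic proteins (BMPs) are secreted ligands of the TGF-beta superfamily. They bind a complex of type I and type II serine/threonine kinase receptors, which phosphorylates the receptor SMADs SMAD1, SMAD5 and SMAD9. These enter the nucleus with SMAD4 and switch on target genes, among them the Id genes and the gene of the inhibitory SMAD6, which feeds back on the pathway. In the developing heart, BMP ligands take part in forming the atrioventricular cushions from which the mitral valve grows. The 10 genes described here were chosen by symbol. They are the ligands Bmp2, Bmp4 and Bmp6, the receptors Bmpr1a and Bmpr2, the SMADs Smad1 and Smad6, and the targets Id1, Id2 and Id3. All 10 were found among the 33640 genes of the deposited table, and all averaged at least 10 TPM over both libraries. TPM is a unit of transcript abundance that corrects for the length of a transcript and for the size of the library. Levels of different genes can so be set side by side. The RNA was amplified, however, and TPM does not correct for unequal amplification of genes.

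RNA was sequenced from the mitral valves of mice aged 5 months, either WT (wild type) or carrying the C1039G allele of Fbn1 on 1 chromosome (Fbn1C1039G/+). Fbn1 encodes the microfibril protein fibrillin-1, and this missense allele is a mouse model of Marfan syndrome. For each genotype 8 valves from males and females were combined before RNA extraction, so there was 1 library per genotype and no measure of variation between animals. The WT pool was the control, and every cell of a mutant animal carries the allele. No test was possible and no p-value is given: each difference below is one between 2 libraries. Differences are mutant minus WT values of log2(TPM + 1), a scale that understates changes of low genes, and are called log2 differences. Paired TPM values give WT first and mutant second. Sequencing depth is unknown, since TPM does not keep it. In bulk tissue, fewer cells of a type and less RNA per cell cannot be told apart.

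The BMP genes differed little between the pools. None of the 10 was 1.5-fold higher or 1.5-fold lower. Over the 17004 genes with a mean of 1 TPM or more, 15.4% were higher and 4.73% lower by 1.5-fold or more. Among the 10145 genes with a mean of 10 TPM or more, these shares were 10.7% and 2.58%. The differences of the members ran from −0.31 for Id1 to 0.29 for Smad6, and 5 lay above 0 and 5 below. Of all genes, 64.9% of the 17004 and 63.7% of the 10145 lay above 0. The median of the 10 members was 0.01, beside 0.14 over the 17004 genes and 0.11 over the 10145. Of the members furthest from 0, Smad1, Smad6 and Bmp6 were higher in mutant valves and Id1 was lower, as were Id2 and Id3 by less.

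**Figure D1:**
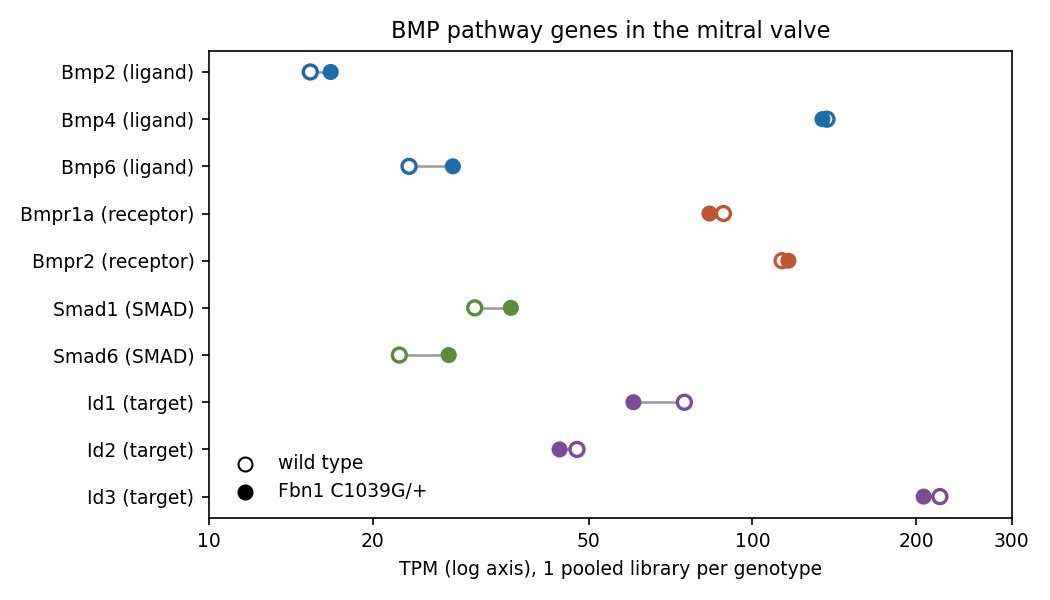
TPM of the 10 BMP genes (log axis) in WT valves (open circles) and Fbn1 mutant valves (filled circles), coloured by role, with 1 library per genotype and hence no error bars. The pairs lie close together, the widest gaps being those of Id1, Smad6 and Bmp6.

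Sequences before the start sites are shown for 3 targets of SMAD signalling, Smad6, Id2 and Id3, because Smad6 was higher and the Id genes lower in mutant valves. Of the 10 genes, 8 (all but Bmp2 and Id1) were matched by symbol in the RefSeq promoter table (GRCm38.p6, the same assembly as mm10), and the 250 bases before each start were searched on both strands. The motifs were GGCGCC and GGAGCC, to which SMAD1 and SMAD5 are known to bind, and CAGAC, bound by SMAD3 and SMAD4. They do not overlap one another in the lines below, where capitals mark each match and each sequence reads 5′ to 3′ on the strand of the gene.
Smad6, chr9:64022060-64022309, minus strand: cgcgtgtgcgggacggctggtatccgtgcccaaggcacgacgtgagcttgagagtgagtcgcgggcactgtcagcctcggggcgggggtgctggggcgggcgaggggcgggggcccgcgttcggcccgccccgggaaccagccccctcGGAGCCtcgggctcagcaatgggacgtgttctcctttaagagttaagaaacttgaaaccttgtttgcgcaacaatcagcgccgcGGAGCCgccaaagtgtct
Id2, chr12:25096306-25096335, minus strand: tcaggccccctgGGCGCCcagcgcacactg
Id2, chr12:25096163-25096192, minus strand: gtatgatggacgGGAGCCcttccaccaatg
Id3, chr4:136143632-136143661, plus strand: cgaGGCTCCgctgtcctcggcgtCAGACca
The Smad6 window lies upstream of all GENCODE exons of the gene. The first Id2 line lies in an intron, and the second Id2 line and the Id3 line in exons, of longer GENCODE transcripts of these genes. The Smad6 window held GGAGCC at 102 and at 18 bases before the start, counted to the first base of the match. The Id2 window held GGCGCC at 231 and GGAGCC at 88 bases. In Id3, GGAGCC lay at 187 bases (as GGCTCC, its other strand) and CAGAC at 167 and at 68 bases. Of the 8 promoters, 3 held GGCGCC (Bmpr1a, Bmpr2 and Id2), 4 held GGAGCC (Bmp4, Smad6, Id2 and Id3) and 2 held CAGAC (Bmp6 and Id3). Matches were thus not confined to the targets shown, and Smad1 held none. The same letters occur in 9.59%, 25.97% and 42.2% of all 32851 promoter windows in the table. A match of letters is a description and not evidence of binding.

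Of the ligands, Bmp4 was by far the most abundant. Bmp4, a ligand of the cardiac outflow tract and of many epithelia, was at 137 TPM in WT and 135 TPM in mutant valves, a log2 difference of −0.03. The gene spans 46383520 to 46390669 on the minus strand of chromosome 14 (mm10, as for all positions here; ENSMUSG00000021835.15). Its level was thus nearly the same in both libraries. Bmp6, which is known as the signal by which the liver endothelium induces hepcidin, was at 23.3 and 28.1 TPM, a log2 difference of 0.26. The gene spans 38345107 to 38500302 on the plus strand of chromosome 13. Bmp2, the ligand that the atrioventricular myocardium uses to induce cushion formation, was at 15.4 and 16.7 TPM, a log2 difference of 0.12. The gene spans 133552159 to 133562885 on the plus strand of chromosome 2. Bmp2 was the lowest of the 10 genes in both pools. Its direction was not stable, since it was −0.01 after quantile normalization. The summed TPM of these ligands was 176 in WT and 179 in mutant valves.

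Exons of Bmp6 share 224 bases with those of Txndc5 on the opposite strand (108 and 99.6 TPM), and exons of Bmp4 share 89 bases with those of Gm15217, also opposite (1.69 and 4.67 TPM). Exons of Bmpr1a share 290 bases with the opposite-strand gene Gm17110, which was not analysed here. How the authors' counting treated strand is not given in the sources used here, so reads in these stretches cannot be assigned with certainty.

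The other BMP and GDF ligands were mostly scarce. Over all 15 ligands, Bmp4 made up 60.7% of the summed TPM in WT and 58.0% in mutant valves, and Bmp6 10.3% and 12.1%. Bmp5, a ligand of the BMP6 and BMP7 subgroup, was at 21.8 and 22.8 TPM, close to Bmp6 in WT. Gdf7, a GDF ligand known from the spinal cord roof plate and from tendon, was at 9.42 and 4.89 TPM, and Bmp3, a divergent ligand that can oppose other BMPs, was at 6.40 and 3.83 TPM. Their log2 differences, −0.82 and −0.62, were the largest among ligands averaging 5 TPM or more. Of the 12 other ligands, 8 had a mean of 1 TPM or more. Among these, 2 were higher and 2 lower by 1.5-fold or more, beside 15.4% and 4.73% of the 17004 genes. The higher ones, picked with their levels known, were Gdf3 (0.956 and 5.00 TPM), a ligand of early embryos, and Gdf6 (0.554 and 1.86 TPM), a skeletal ligand. Bmp10, the ligand of trabecular and atrial heart muscle, was at 0.0356 TPM in WT and listed at 0 in mutant valves.

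The receptors were close to equal in both pools. Bmpr2, the type II receptor whose human gene is mutated in heritable pulmonary arterial hypertension, was at 113 TPM in WT and 116 TPM in mutant valves, a log2 difference of 0.04. The gene spans 59763400 to 59879014 on the plus strand of chromosome 1. The sign of this small difference turned under all 3 settings that could turn it, namely median centring, quantile normalization and rescaling, where it ranged down to −0.08. Bmpr1a, the type I receptor ALK3, which the embryonic heart needs for valve formation, was at 88.4 and 83.3 TPM, a log2 difference of −0.08. The gene spans 34410734 to 34503341 on the minus strand of chromosome 14. The sum of both was 202 TPM in WT and 199.8 TPM in mutant valves.

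Bmpr2 and Bmpr1a were the main receptors of their types by TPM. Bmpr2 made up 85.4% and 81.6% of the summed TPM of the 3 type II receptors, and Bmpr1a 51.4% and 45.4% of the 4 type I receptors. Acvr2b, a type II receptor shared with activins, was at 3.97 and 6.07 TPM. Of the type I receptors, Acvr1 (ALK2) was at 60.05 and 66.8 TPM and Acvrl1 (ALK1), the endothelial receptor of BMP9 and BMP10, at 23.3 and 33.0 TPM. Bmpr1b was at 0.384 and 0.246 TPM. The share of Bmpr1a was lower in the mutant pool while those of Acvr1 and Acvrl1 were higher, by a few percentage points.

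Among co-receptors, Rgma stood out by the size of its difference. Rgma, a membrane-anchored repulsive guidance molecule that also binds BMPs, was at 29.5 TPM in WT and 14.4 TPM in mutant valves, a log2 difference of −0.98. Its receptor Neo1, neogenin, was at 90.2 and 72.6 TPM, a log2 difference of −0.31. Eng, the endothelial co-receptor endoglin, was at 289 and 275 TPM. Of the 11 further receptors and co-receptors in the table, 10 had a mean of 1 TPM or more. Their median difference was 0.02, with 5 above 0 and 5 below, beside 64.9% above 0 over the 17004 genes. Rgma was the 1 that was at least 1.5-fold lower, with none 1.5-fold higher. The shares of the 17004 genes past these limits were 4.73% and 15.4%.

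**Figure D2:**
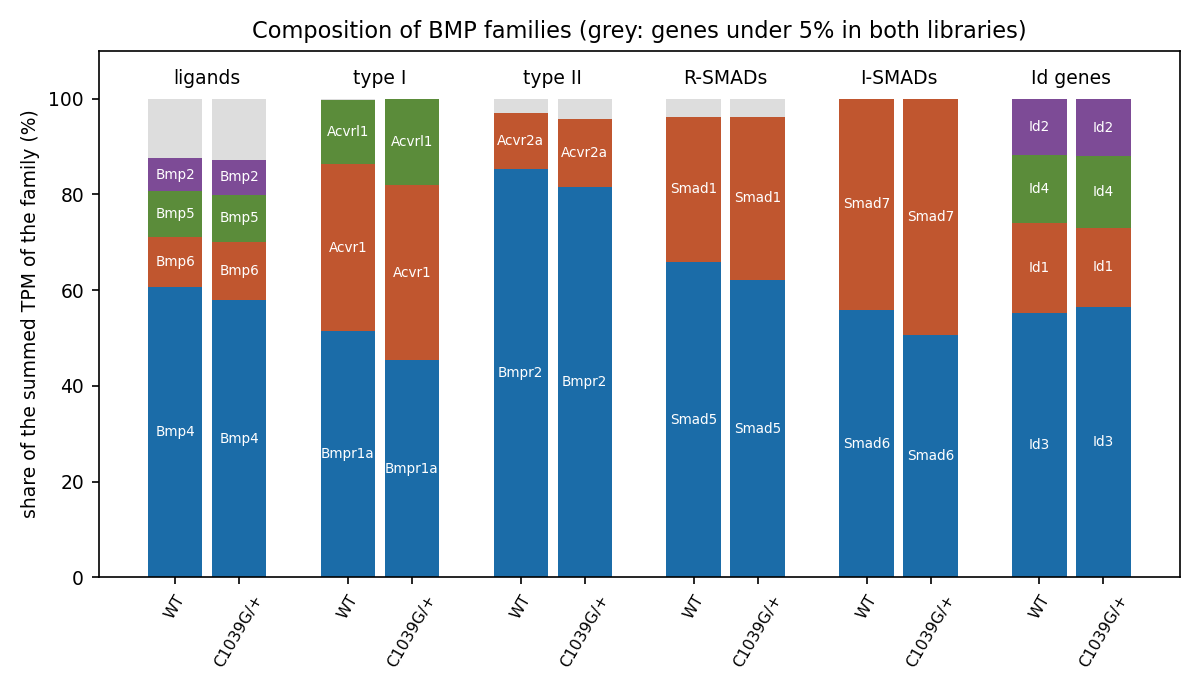
Share of each gene in the summed TPM of its family (%), in WT and mutant valves, for all 15 ligands, type I and type II receptors, receptor SMADs (R-SMADs), inhibitory SMADs (I-SMADs) and the 4 Id genes. Bmp4, Bmpr1a, Bmpr2, Smad5, Smad6 and Id3 were the leading genes in both libraries.

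Both SMAD members, the receptor SMAD gene Smad1 and the inhibitory SMAD gene Smad6, were higher in mutant valves. Smad1, a receptor SMAD that carries the BMP signal to the nucleus, was at 30.8 TPM in WT and 35.9 TPM in mutant valves, a log2 difference of 0.21. The gene spans 79338395 to 79399518 on the minus strand of chromosome 8. Smad6, the inhibitory SMAD whose loss in mice thickens the cardiac valves, was at 22.4 and 27.6 TPM, a log2 difference of 0.29. The gene spans 63953076 to 64022059 on the minus strand of chromosome 9. This was the highest difference among the 10 genes. Both differences remained above 0 under the same 3 scalings, with ranges over all settings of 0.06 to 0.22 for Smad1 and 0.15 to 0.30 for Smad6. For comparison, the median of the 6917 genes averaging 10 to 50 TPM was 0.12, and the central 95% of them ran from −0.61 to 1.001.

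Smad5, the other main receptor SMAD, was at 67.0 and 65.8 TPM and made up 65.9% and 62.2% of the receptor SMADs, with Smad1 at 30.3% and 33.9%. Smad7, the second inhibitory SMAD, which blocks both TGF-beta and BMP receptors, was at 17.7 and 27.0 TPM, a log2 difference of 0.59 that lay just past the 1.5-fold limit. The ratio of Smad7 to Smad6 was 0.789 in WT and 0.979 in mutant valves. Zfp423, a zinc finger partner of SMAD1, was at 68.5 and 49.6 TPM. The SMAD corepressor gene Ski was at 130 and 137 TPM, and Smurf2, a ubiquitin ligase that acts on SMADs and their receptors, was at 108 and 90.2 TPM. Of the 10 other SMADs and regulators, 6 were above 0 and 4 below, which became 1 and 9 after centring on the median of genes averaging 10 TPM or more (0.11) or after quantile normalization. As deposited, Smad7 was the 1 gene of these past 1.5-fold higher, beside 15.4% of the 17004 genes, of which 64.9% lay above 0. Smad7 fell short of that limit after centring and after quantile normalization, while Zfp423 was just past 1.5-fold lower after quantile normalization.

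All 3 Id targets were lower in mutant valves. Id proteins are helix-loop-helix proteins without a DNA-binding region that hold E proteins in inactive pairs. Id1 was at 74.9 TPM in WT and 60.4 TPM in mutant valves, a log2 difference of −0.31. The gene spans 152736251 to 152737410 on the plus strand of chromosome 2. Id2 was at 47.5 and 44.2 TPM, a log2 difference of −0.10. The gene spans 25093799 to 25097140 on the minus strand of chromosome 12. Id3, the most abundant of the 10 genes, was at 221 and 207 TPM, a log2 difference of −0.10. The gene spans 136143497 to 136145755 on the plus strand of chromosome 4. The difference of Id1 was the largest in size among the members. It was inside the central 95% of the 2671 genes averaging 50 to 200 TPM (−0.52 to 0.80), and 61.9% of genes averaging 10 TPM or more had a difference no larger in size.

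Over all settings, the differences ranged from −0.43 to −0.29 for Id1, −0.24 to −0.10 for Id2 and −0.21 to −0.10 for Id3. Centring, quantile normalization and rescaling each lowered the mutant values of these genes. They could therefore not turn a difference already below 0, and the unchanged sign is no check of it. The summed TPM of Id1, Id2 and Id3 was 344 in WT and 311 in mutant valves. Id4, the remaining gene of the family, was at 56.8 and 54.6 TPM. The makeup of the family was similar in both pools: Id3 made up 55.2% and 56.5% of it, Id1 18.7% and 16.5%, Id4 14.2% and 14.9%, and Id2 11.9% and 12.1%. The E protein genes Tcf12 (387 and 327 TPM) and Tcf4 (337 and 390 TPM), whose products the Id proteins bind, differed in opposite directions. Tcf3, which encodes E12 and E47, was at 19.97 and 19.3 TPM.

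**Figure D3:**
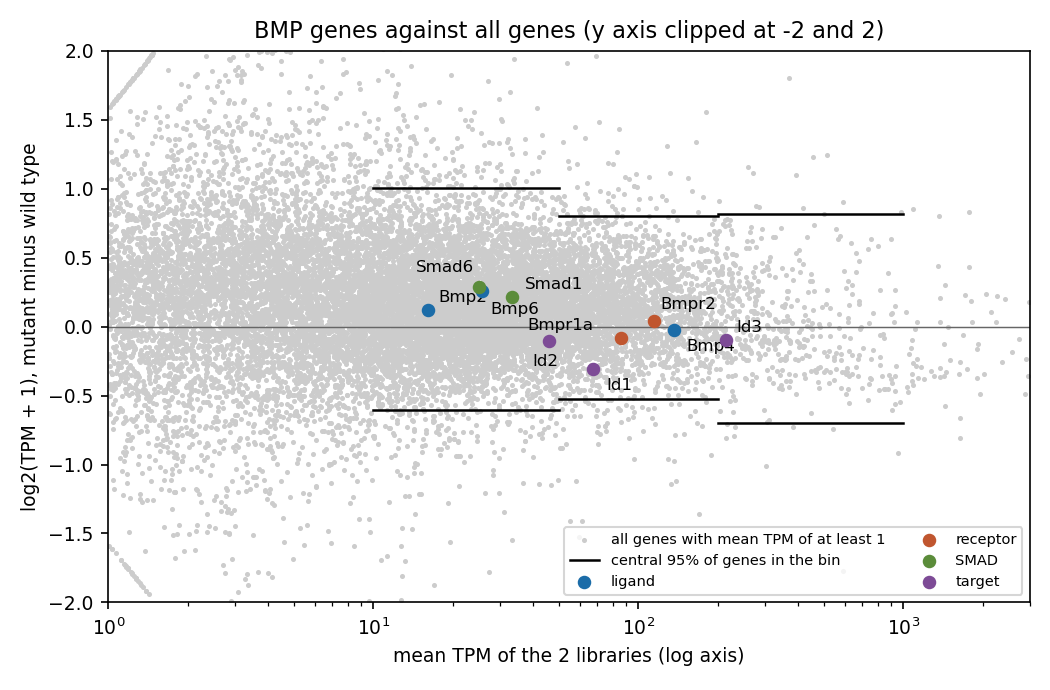
Mutant minus WT difference in log2(TPM + 1) against mean TPM (log axis) for all genes with a mean of 1 TPM or more (grey) and the 10 BMP genes (coloured by role), with black lines at the central 95% of genes in each abundance bin. All 10 BMP genes lie inside the lines of their bin, and genes beyond the axes are not drawn.

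The order of abundance of the 10 genes was the same in both pools, namely Id3, Bmp4, Bmpr2, Bmpr1a, Id1, Id2, Smad1, Bmp6, Smad6 and Bmp2. All 45 pairs of genes kept their order. Neighbours such as Bmp6 and Smad6 were closer to each other within a pool than either was to itself between the pools, and with 1 library each no spread is available to separate them. Of the 10 differences, 10 lay inside the central 95% of genes of similar abundance and 7 inside the middle 50%. The exceptions were Bmpr1a, Id1 and Id2, on the lower side. Against the median of the 17004 genes, 7 members lay below and 3 above. Members above numbered 4 against the median of genes averaging 10 TPM or more and 4 after quantile normalization. They numbered 5 without a filter, where the median of all genes was 0.

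Other target genes did not share 1 direction. Hamp encodes hepcidin, the iron hormone that BMP6 and SMAD signalling induce in the liver. It was at 191 TPM in WT and 263 TPM in mutant valves, a log2 difference of 0.46. Msx1, a homeobox gene of the valve cushions, was at 27.1 and 14.8 TPM, a log2 difference of −0.84. Gata4, a cardiac transcription factor gene, was at 146 and 136 TPM. Of 14 further targets 11 had a mean of 1 TPM or more, with 5 above 0, 6 below and a median of −0.06. Msx1 was the 1 past 1.5-fold, on the lower side, beside 4.73% lower and 15.4% higher over the 17004 genes. Of those genes, 64.9% lay above 0.

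Extracellular antagonists and modulators differed in both directions. As deposited, 15 of 19 reported here had a mean of 1 TPM or more, with 11 above 0, near the share of all genes, 4 below and a median of 0.25, which was 0.14 after centring and 0.09 after quantile normalization. Fst, follistatin, which traps activins and some BMPs, was at 11.7 TPM in WT and 20.1 TPM in mutant valves, a log2 difference of 0.73. The follistatin-like gene Fstl1 was the most abundant, at 585 and 690.0 TPM, and Twsg1, which acts with chordin on BMPs, was at 289 and 222 TPM. Nbl1, a DAN-family antagonist, was at 35.8 and 48.5 TPM. The classical antagonists were low, with Nog at 0.161 and 0.316 TPM, Grem1 at 0.0590 and 0.154 TPM and Chrd at 2.31 and 3.17 TPM (genes picked with their levels known). Of these antagonists, 3 were higher by 1.5-fold or more, Fst and the scarce Chrdl2 (1.11 and 2.42 TPM) and Vwc2 (1.14 and 3.04 TPM). By the same limit, 15.4% of the 17004 genes were higher.

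Over the 54 other pathway genes reported here with a mean of 1 TPM or more, 6 were higher and 4 lower by 1.5-fold or more. These counts were 4 and 4 after centring, and 4 and 5 after quantile normalization. Over the 17004 genes as deposited, 15.4% were higher and 4.73% lower by 1.5-fold or more. The median of the 54 genes was 0.09, and −0.02 after centring and −0.08 after quantile normalization. On the log2(TPM + 1) scale Gdf3 was the 1 gene of these past 2-fold higher, beside 4.81% higher and 1.72% lower over the 17004 genes. In the TGF-beta arm, the genes most like the BMP set, none of 7 was past 1.5-fold either, and differences ran from −0.43 for Tgfb3 (79.4 and 58.8 TPM) to 0.35 for Tgfb1 (25.8 and 33.1 TPM). The type I receptor gene Tgfbr1 was at 107 and 131 TPM and Smad3 at 108 and 121 TPM. The median of the 7 genes was 0.12, and the gap to the median of 0.01 for the BMP genes was not tested. With Smad4 and the inhibitory Smad7 added, 1 of 9 genes was just past 1.5-fold higher as deposited. That gene was Smad7 (17.7 and 27.0 TPM), and the median was again 0.12.

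**Figure D4:**
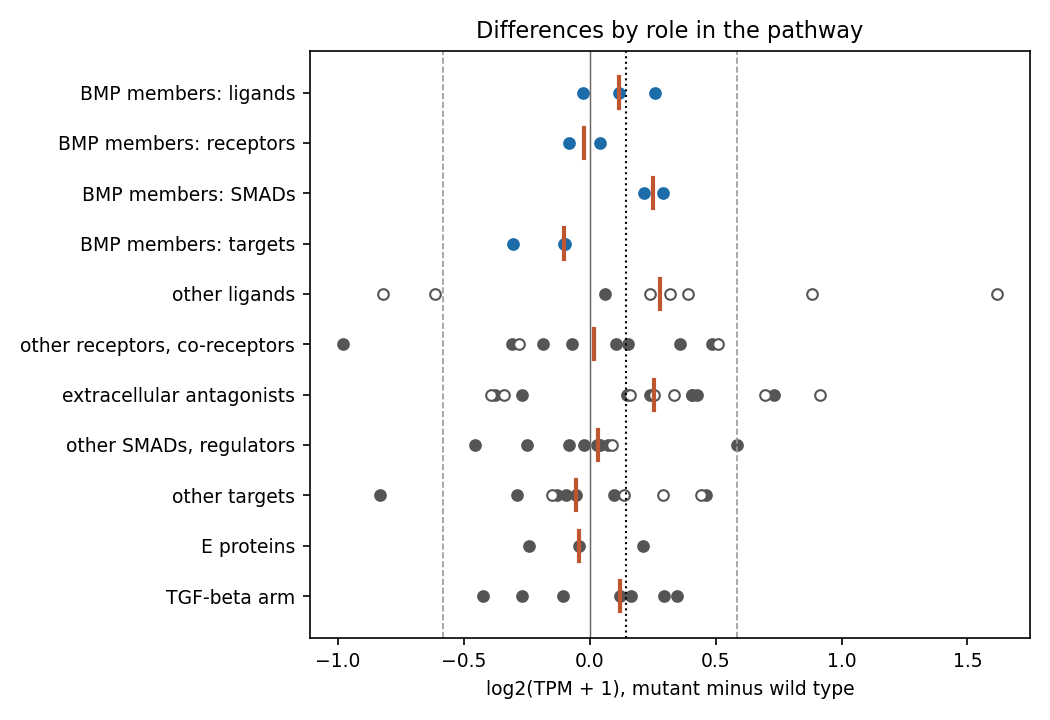
Mutant minus WT difference in log2(TPM + 1) for each gene with a mean of 1 TPM or more by its role in the pathway, with BMP members in blue, other genes in black, and open circles for a mean TPM below 10. Orange bars are list medians, the dotted line is the median of all genes and dashed lines mark 1.5-fold; the members lie between the dashed lines.

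The pools also differed in transcripts of other cells. Of 10 endothelial markers 8 were lower in the mutant pool, with summed levels of 891 TPM in WT and 866 TPM in mutant valves, Pecam1 at 223 and 241 TPM and Kdr at 18.5 and 12.3 TPM. Lymphatic markers summed to 373 and 213 TPM (6 of 7 lower) and cardiac muscle markers to 2638 and 1844 TPM (8 of 8 lower). T cell markers summed to 76.05 and 48.1 TPM (5 of 6 lower), with Cd3d, the most abundant, higher (19.7 and 26.9 TPM). Red cell genes summed to 6801 and 687 TPM (5 of 5 lower). Of these, 4 globin genes were past 1.5-fold lower, while Alas2 was at 27.6 and 23.3 TPM. Macrophage markers summed to 1909.9 and 2285 TPM (7 of 8 higher) and neutrophil markers to 18.5 and 104 TPM (5 of 7 measured higher, with Ly6g listed at 0 in both pools). Markers of valve interstitial cells were abundant in both pools, at 17906 and 17093 TPM summed over 9 genes (5 higher and 4 lower). Dcn, at 11409 and 9304 TPM, made up most of each sum. Postn (1269 and 2263 TPM) was the 1 gene of these past 1.5-fold, and it was higher. Smooth muscle markers summed to 401 and 483 TPM, a gap about the size of that of Rgs5 alone (186 and 268 TPM). Of 7 measured, 4 were higher and 3 lower, and Mylk (13.96 and 8.09 TPM) and Myocd (6.14 and 2.92 TPM) were 1.5-fold lower or more. The part of these cells in the BMP values was not tested.

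Immediate early genes, which respond to handling of tissue and to growth factors as the Id genes can, were higher in 7 of 10 cases, near the share of all genes, with sums of 448 and 488 TPM. Their median was 0.18, and 0.07 after centring and 0.05 after quantile normalization, with 6 of 10 higher under both. The Y-linked genes Ddx3y (13.6 and 20.9 TPM) and Eif2s3y (24.7 and 32.0 TPM) also were higher in mutant valves, in pools of both sexes. Their part in the BMP values was not tested.

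**Figure D5:**
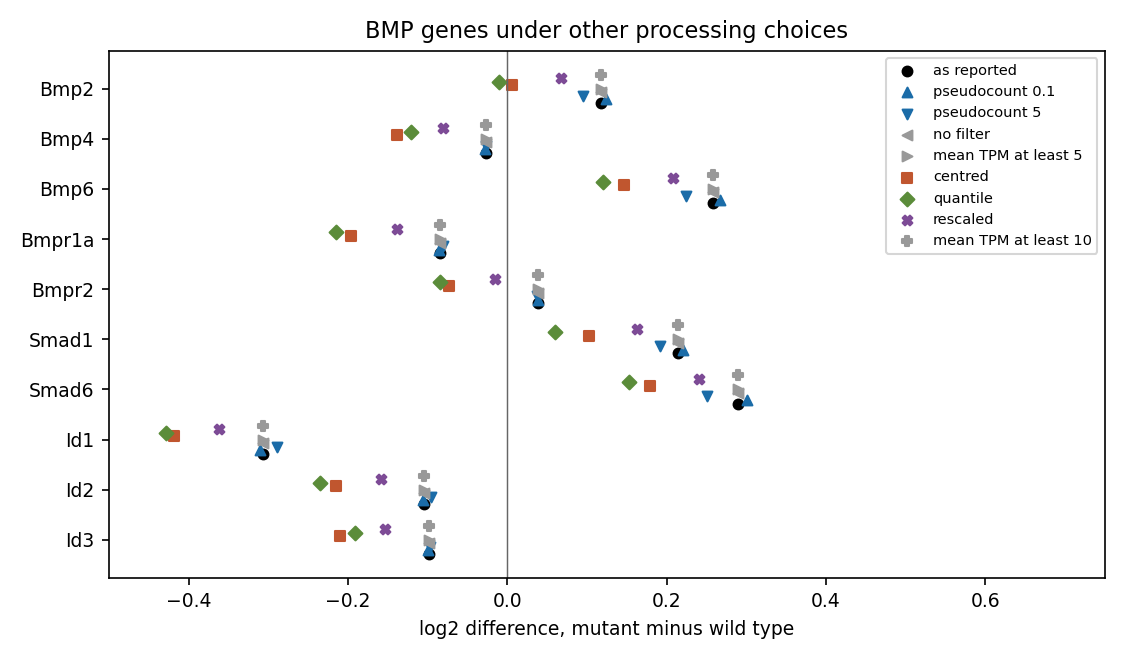
Difference between the pools (log2, mutant minus WT) of each BMP gene as reported (black circle) and under 8 other processing choices. Points of Smad1, Smad6 and Bmp6 stay above 0 and those of Bmp4, Bmpr1a and the Id genes below 0, while Bmp2 and Bmpr2 cross it. Centring, quantile normalization and rescaling lower the mutant values of these genes, so they could turn only differences above 0.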

How the data were processed

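Per the labels' protocols, total RNA was amplified (Ovation RNAseq v2) and made into libraries with Nextera XT. The submitters' processing notes name Trimmomatic, HISAT2, kallisto and mm10. The role and version of each tool, the annotation and the forming of gene totals were not given in the sources used here. In all, the authors deposited 1 TPM value per gene and library. TPM sums to 999964 and 999945, so a fall of abundant transcripts raises all others.

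Columns were matched to genotypes by label. With 1 library per genotype no test was run. Differences used log2(TPM + 1) and, for counts over all genes, a mean of 1 TPM or more. Members and lists were chosen with earlier results of these data known. Named genes were the 10 members and genes picked per other list of the pathway. The picked genes were the 2 most abundant and the 2 with the largest difference at a mean of 5 TPM or more. For cell markers the rule picked 1 each, but not all of these are named, and Myocd and Alas2 were named outside it. Other exceptions are marked or stand as values. A planned protein comparison was not made, and 1 gene of the antagonist list is not reported here. Coordinates come from GENCODE M21 (mm10). The difference script, in Python 3.11.15 with pandas 2.3.3, was tested on simulated data. Alternatives were other pseudocounts (0.1 and 5), filters on mean TPM (none, 5 and 10), median centring, quantile normalization and rescaling without mitochondrial, globin, Rik, predicted and ribosomal protein genes.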

Additional observations from a re-analysis of the deposited data

How the results depend on the processing

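The count of BMP genes at least 1.5-fold higher or lower was 0 under all 8 alternatives. The median of the 10 genes moved from 0.01 to −0.11 with centring on the median of genes averaging 10 TPM or more, to −0.10 with quantile normalization and to −0.05 with rescaling, since each lowers the mutant values of these genes together. Members above 0 numbered 5 as reported, 4 after centring or rescaling and 3 after quantile normalization, as Bmpr2 turned in all 3 and Bmp2 in the last (−0.01). Over all genes, the counts at least 1.5-fold higher and lower were 2613 and 805 as reported, 1172 and 358 with a pseudocount of 5, 1530 and 399 with a mean of 5 TPM or more, and 1084 and 262 with 10 or more, a filter chosen after seeing the data. They were 1503 and 1409 after quantile normalization, and without a filter 1230 were lower. The share of higher genes among them was 76.4% as reported, 61.9% with centring and 51.6% with quantile normalization. At the 2-fold limit, 818 and 293 became 1264 and 464 with a pseudocount of 0.1 and 209 and 87 with a pseudocount of 5. No paired analysis was possible because each genotype has 1 library. Depth is unknown, so no interval can be given for any value.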

Other observations

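Because Hamp was abundant for a gene best known from the liver, other genes of iron handling were read out; they were chosen after the values of Hamp were seen, and no test was possible. Of the genes that control hepcidin, Hfe was at 43.3 TPM in WT and 39.95 TPM in mutant valves, Tfr2, a transferrin receptor, at 25.8 and 25.9 TPM, and Hfe2, the BMP co-receptor hemojuvelin, at 3.51 and 2.71 TPM. Tmprss6, the protease that cleaves hemojuvelin, was at 1.497 and 1.96 TPM. Hamp2, a close copy of Hamp, was at 0.481 TPM and listed at 0; reads shared by such copies cannot be told apart. The iron exporter gene Slc40a1, on whose product hepcidin acts, was at 11.7 and 8.89 TPM, and the transferrin receptor gene Tfrc at 9.67 and 4.89 TPM. Of the ferritin genes, Ftl1 was at 873 and 603 TPM and Fth1 at 2745 and 2415 TPM. Trf, the transferrin gene, was at 231 and 240 TPM, and Ltf at 0.671 TPM in WT and listed at 0 in mutant valves. Red cell genes were lower in the same mutant pool (6801 and 687 TPM summed). Nearly all of each sum came from globin genes, with Alas2 at 27.6 and 23.3 TPM. The part of the red cell genes in these values was not tested.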
